A study of Harpegnathos saltator with 18 samples.

Results

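The loci described here are the rows of the deposited table that carry XLOC identifiers and whose mean level was highest in the optic lobe of Harpegnathos saltator workers. A locus counted when it reached 1 RPKM (reads scaled to the length of the gene model and the read total of the library) or more in at least 3 of the 18 libraries and its mean log2(RPKM + 1) over the 3 optic lobe libraries was above the mean of every other tissue. This held for 163 of the 369 XLOC loci that passed the filter, out of 438 XLOC rows and 20755 rows in all. The remaining 69 XLOC rows lay below the filter, and 20 of these had their highest mean in optic lobe too. Harpegnathos saltator is an ant whose workers can become gamergates, which mate and lay eggs. The table holds optic lobe, non-visual brain, retina, antenna and fat body of workers and ovary of gamergates, with 3 libraries each. Every ovary library came from gamergates and every other library from workers, so tissue and caste cannot be told apart for ovary. Neither age nor treatment is in the labels. Whether a replicate is its own animal or pool is not stated, so the p-values speak for the scatter among these libraries alone, part of which may be technical.

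The optic lobe is the part of the insect brain that receives the axons of the photoreceptors and holds the layered neuropils in which visual input is first processed. The non-visual brain is the rest of the dissected brain, and the retina holds the photoreceptors themselves. XLOC is the prefix that transcript assemblers of the Cufflinks family write for loci put together from RNA reads, whereas the HSALG rows are the gene models of the ant. Such assembled loci can be protein-coding genes missing from an annotation or long non-coding RNAs, which are transcripts without a long reading frame, known in many animals for low levels and for expression in nervous tissue. The sources used here do not say whether the XLOC rows are non-coding, and none of the 20755 identifiers matched the 14329 genes of the reference table. The loci are therefore given by identifier, without names, functions, positions or sequences, and the labelled tissues could not be checked against markers by name.

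Gene model lengths and reads were recovered from the steps of the RPKM values. Library totals ran from 11 to 26.5 M reads in optic lobe, from 11.3 to 15.2 M reads in non-visual brain and from 2.37 to 4.73 M reads in antenna. Retina, fat body and ovary lay between 8.2 and 30.1 M reads. The 163 loci were 212 to 5528 bases long with a median of 1280 bases, against 989.5 bases for the other 206 tested XLOC loci. Of their lengths, 33.1% were multiples of 3, against 38.3% for the other tested XLOC loci and 97.8% for HSALG rows highest in optic lobe. HSALG lengths are therefore called coding lengths, and XLOC lengths are in bases of the deposited model. In optic lobe a locus had a median of 704 reads over the 3 libraries. In antenna the median was 36 reads and 36 of the 163 loci had no read; 3 reads over the 3 antenna libraries were worth a median of 0.231 RPKM, against 0.0417 RPKM in optic lobe, so low levels in antenna were less often detectable at this depth. Fat body had no read for 23 loci, ovary for 7, retina for 3 and non-visual brain for 0.

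Replicates of a tissue were not always alike. Optic lobe replicate 3 correlated at 0.867 with a non-visual brain library across all tested rows, above its mean correlation of 0.842 with its own tissue. For each antenna library the closest library of another tissue was from retina, and its correlation was above the mean with the own tissue. The values were 0.634 against 0.616 for replicate 1, 0.636 against 0.616 for replicate 2 and 0.726 against 0.587 for replicate 3. The closest of many libraries is here set against a mean, which favours the other tissue. Non-visual brain replicate 1 was listed at 0 for 33 of the 163 loci (20.2%), against 3 and 2 loci in replicates 2 and 3, and for 22.4% of all tested rows.

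Being highest in optic lobe was common in this table. By the same rule 44.2% of the tested XLOC loci were highest there, against 36.8% of the tested HSALG rows and 37.0% of all 12996 tested rows. Of the other tested XLOC loci, 72 were highest in non-visual brain, 58 in ovary, 35 in antenna, 22 in retina and 19 in fat body. These shares follow from the rule and from the scaling of the libraries. The median tested row lay 1.02 higher in optic lobe than in retina on the log2 scale, 1.21 higher than in fat body, 0.29 higher than in ovary and 0.22 higher than in non-visual brain.

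**Figure D1:**
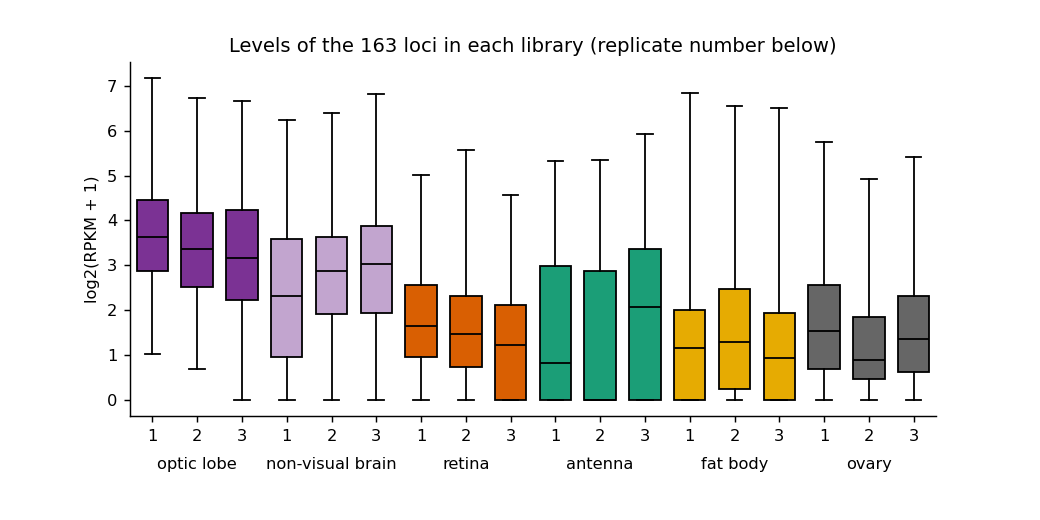
Levels of the 163 loci as log2(RPKM + 1) in each of the 18 libraries, grouped by tissue with the replicate number below. Boxes span the quartiles, the line is the median and the whiskers reach the lowest and highest locus; the medians of the optic lobe libraries were 11.3, 9.36 and 7.94 RPKM before taking logs.

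The loci had moderate levels in optic lobe and lower medians in every other tissue. In dissected tissue, fewer cells of a type and less RNA per cell cannot be told apart. Their mean RPKM in optic lobe ran from 0.927 to 111 with a median of 9.89, and 81 loci were at 10 RPKM or more. The median over the loci was 6.43 RPKM in non-visual brain, 2.98 in antenna, 1.69 in fat body, 1.68 in retina and 1.4 in ovary. The antenna value is a median of means over sparse libraries. Antenna replicates 1, 2 and 3 had medians of 0.775, 0 and 3.19 RPKM, with 46%, 54% and 34.4% of the loci at 0. The median in retina, the other visual tissue, was among the lowest. This was not particular to the loci, since fat body (2.22 RPKM) and retina (2.85 RPKM) also had the lowest medians over all tested rows. HSALG rows highest in optic lobe had medians of 11.2 RPKM in optic lobe and 6.33 in non-visual brain. Their medians were 3.16 RPKM in antenna, 2.94 in ovary, 2.12 in retina and 1.41 in fat body. In all, the loci made up 1.09%, 1.05% and 0.696% of the RPKM of optic lobe replicates 1, 2 and 3. They made up 0.414 to 0.664% in non-visual brain, 0.286 to 0.326% in antenna, 0.138 to 0.164% in retina, 0.1 to 0.138% in fat body and 0.0795 to 0.155% in ovary.

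Few of the loci were confined to 1 tissue. A mean of 1 RPKM or more was reached in all 6 tissues by 63 loci, in 5 tissues by 29, in 4 by 24, in 3 by 24, in 2 by 17 and in optic lobe alone by 5, and 1 locus stayed just under that level in every tissue. The most frequent pattern short of all tissues was optic lobe and non-visual brain together, with 12 loci. The share present in all 6 tissues was 38.7%, against 41.3% of the other tested XLOC loci and 44.8% of HSALG rows highest in optic lobe. The difference between these shares was not tested.

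The optic lobe stood only a little above the next tissue for most of the loci. The difference of mean log2(RPKM + 1) between optic lobe and the next tissue had a median of 0.53 and ran from 0.01 to 2.3, with 76 loci under 0.5. It reached 1, which is 2-fold on this scale, for 24 loci (14.7%), and 17.9% of all tested rows highest in optic lobe did the same (6.6% of all tested rows). The 3 optic lobe libraries were all above each of the 15 others for 23 loci (14.1%), against 12.4% of all rows highest in optic lobe and 4.58% of all tested rows. These are values the rule itself used, so they describe the loci and carry no test. Only 8 of the 24 loci with a 2-fold difference also had no overlapping library, and 9 of the 24 were listed at 0 in non-visual brain replicate 1. Without that library 18 loci had a 2-fold difference, without non-visual brain replicate 3 there were 38, and without optic lobe replicate 3 there were 43. Loci free of overlap numbered 66 without optic lobe replicate 3 and 37 without optic lobe replicate 2.

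**Figure D2:**
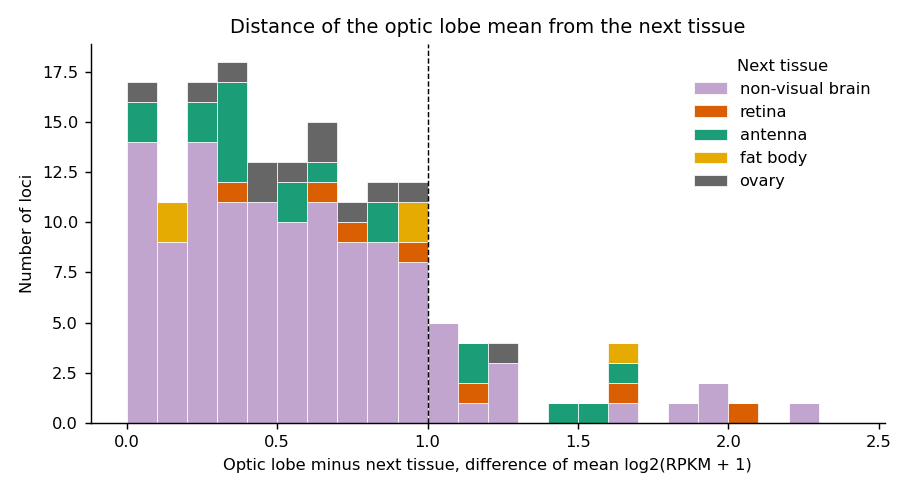
Number of loci by the difference of mean log2(RPKM + 1) between optic lobe and the tissue with the next highest mean, coloured by that tissue. The dashed line marks a difference of 1; 24 of the 163 loci lie at or beyond it, and non-visual brain is the next tissue for 120 loci.

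The next tissue was the non-visual brain for 120 of the 163 loci (73.6%). It was antenna for 19, ovary for 12, retina for 7 and fat body for 5. Ovary was thus next for 7.36% of the 163 loci, against 21.1% of HSALG rows highest in optic lobe, for which non-visual brain was next in 62%. In 124 loci at least 1 non-visual brain library was as high as the lowest optic lobe library. The same was true of antenna for 73 loci, ovary for 40, fat body for 27 and retina for 20. The single highest library outside the optic lobe was non-visual brain replicate 3 for 53 loci, non-visual brain replicate 2 for 26 and antenna replicate 3 for 20. These overlap and highest-library counts were not taken over other rows. They describe the loci and cannot show a trait particular to them.

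Of the 5 loci with the highest optic lobe level, only XLOC_074973 and XLOC_031906 stood clear of every other library there. XLOC_074973 (2277 bases) had 94.4, 84.4 and 45.5 RPKM in optic lobe, against 20.9, 21.4 and 23.4 RPKM in non-visual brain. It averaged 74.8 ± 25.9 RPKM in optic lobe (SD, n = 3), 8.01 ± 2.09 in antenna, 1.88 ± 0.456 in fat body, 1.43 ± 0.695 in retina and 0.736 ± 0.302 in ovary. Each optic lobe library was above all others, and the brain as a whole was far above retina and ovary. The mean of XLOC_074973 in optic lobe was 3.42 times that in non-visual brain and 102 times that in ovary. Its level over the 18 libraries followed HSALG002070.2 most closely of all tested rows (Pearson r = 0.982).

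XLOC_068633 (2166 bases) had the highest level of all in optic lobe, at 142.5, 106 and 85.2 RPKM. Fat body was close behind at 113, 92.8 and 90.4 RPKM, and non-visual brain had 64.6, 83.4 and 113 RPKM. These 3 tissues overlapped, and the optic lobe mean lay 0.14 above fat body on the log2 scale. Without optic lobe replicate 1 XLOC_068633 was no longer highest in optic lobe (difference -0.05), without optic lobe replicate 3 the difference was 0.32, and without fat body replicate 1 or 3 it was 0.24 or 0.08. Retina had 11.5, 14.3 and 6.27 RPKM and ovary 3.83, 2.18 and 3.87 RPKM, well apart from them, while antenna had 18, 15.6 and 59.9 RPKM. With trimmed-mean factors XLOC_068633 was no longer highest in optic lobe (log2 difference to the highest tissue -1.15), while with quantile normalization it was. The closest row was HSALG008360.2 (r = 0.966).

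XLOC_044583 (872 bases) had 96.8, 46.5 and 98.2 RPKM in optic lobe, against 71.8, 53.1 and 65.1 RPKM in non-visual brain. Both brain parts overlapped, since optic lobe replicate 2 was below all 3 non-visual brain libraries. The highest library outside the brain reached 26 RPKM, in antenna, so every brain library was above the rest. The log2 difference of 0.27 between optic lobe and non-visual brain ranged between 0.09, when optic lobe replicate 3 was left out, and 0.63, when optic lobe replicate 2 was. XLOC_031242 (590 bases) had 40.3, 49.1 and 93.7 RPKM in optic lobe, against 74.3, 43.5 and 44.4 RPKM in non-visual brain. The log2 difference for XLOC_031242 was 0.12. It was -0.23 without optic lobe replicate 3, -0.01 without non-visual brain replicate 2, and at most 0.37 without another library, so its place as highest in optic lobe depended on single libraries. With trimmed-mean factors XLOC_031242 was no longer highest in optic lobe either (difference -0.102), while with quantile normalization it was (0.136).

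XLOC_031906 (1310 bases) differed from these by its level in ovary. It had 42.7, 31.2 and 99.8 RPKM in optic lobe, against 23.3, 29.2 and 23.9 RPKM in ovary and 23.2, 21.2 and 16.8 RPKM in non-visual brain. Optic lobe was above every other library, though its lowest value was near the highest of ovary. Retina had 5.06, 2.47 and 2.77 RPKM. Optic lobe and ovary differed by 0.99 on the log2 scale, by 0.51 without optic lobe replicate 3 and by 1.33 without optic lobe replicate 2.

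**Figure D3:**
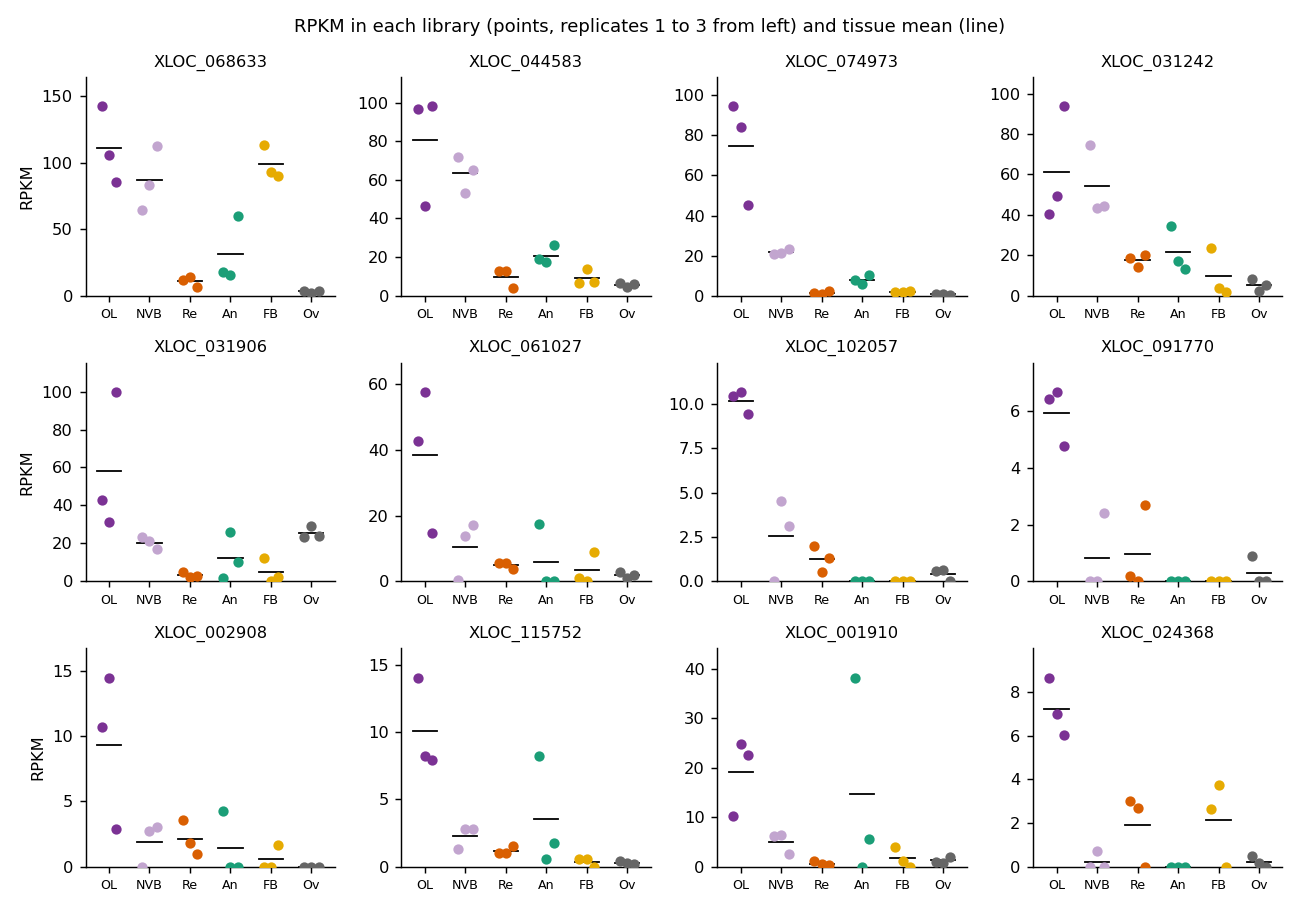
RPKM of 12 loci in each library, with a line at the tissue mean, for optic lobe (OL), non-visual brain (NVB), retina (Re), antenna (An), fat body (FB) and ovary (Ov). The first 5 loci have the highest optic lobe means. The others have the largest differences among loci with the same next tissue, for non-visual brain, retina, antenna and fat body. XLOC_074973 and XLOC_102057 show optic lobe libraries clear of all others, while XLOC_068633 shows fat body at a like level.

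Among loci whose next tissue was non-visual brain, XLOC_061027 and XLOC_102057 had the largest difference. XLOC_061027 (602 bases) had 42.7, 57.7 and 14.8 RPKM in optic lobe, against 0.293, 13.7 and 17.1 RPKM in non-visual brain. Optic lobe replicate 3 lay below non-visual brain replicate 3 and below antenna replicate 1 (17.6 RPKM), so the groups overlapped. Its log2 difference of 2.3 became 1.08 without non-visual brain replicate 1 and 2.85 without optic lobe replicate 3. With trimmed-mean factors it was 1.33, and with quantile normalization 1.83. XLOC_102057 (580 bases) had 10.5, 10.7 and 9.42 RPKM in optic lobe, against 0, 4.54 and 3.11 RPKM in non-visual brain. Here the optic lobe libraries lay close together and none overlapped. The log2 difference was 1.98, and 1.23 without non-visual brain replicate 1. With trimmed-mean factors it was 1.39, as with quantile normalization. No read was found in antenna or fat body. With 3 reads over the 3 libraries of a tissue as the floor, XLOC_102057 was at least 20-fold higher in optic lobe than in antenna and at least 77-fold higher than in fat body.

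XLOC_091770 and XLOC_002908 led the 7 loci whose next tissue was retina. XLOC_091770 (249 bases) had 6.41, 6.67 and 4.76 RPKM in optic lobe, against 0.19, 0 and 2.69 RPKM in retina and 0, 0 and 2.42 RPKM in non-visual brain. It was 1 of the 5 loci with a mean of 1 RPKM or more in optic lobe alone, at a total of 87 reads there, 8 in retina and 9 in non-visual brain. No optic lobe library overlapped with any other. The log2 difference of XLOC_091770 to the next tissue was 2.07, 1.26 with trimmed-mean factors and 0.79 with quantile normalization. XLOC_002908 (1590 bases) had 10.7, 14.5 and 2.86 RPKM in optic lobe, against 3.58, 1.79 and 0.962 RPKM in retina and 0, 2.73 and 3.07 RPKM in non-visual brain. Optic lobe replicate 3 fell among the other tissues. Ovary had no read, which puts optic lobe at least 335-fold higher with the same floor. The log2 difference of XLOC_002908 to retina was 1.6, and 2.2 without optic lobe replicate 3. To the next tissue it was 0.61 with trimmed-mean factors and 0.54 with quantile normalization. XLOC_002908 and XLOC_061027 were each other's closest row in the whole table (r = 0.944). Both were high in optic lobe replicates 1 and 2, low in optic lobe replicate 3 and in non-visual brain replicate 1, and in antenna had reads in replicate 1 alone.

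For the 19 loci whose next tissue was antenna, the antenna libraries disagreed in both leading cases. XLOC_115752 (1492 bases) had 14.1, 8.22 and 7.94 RPKM in optic lobe, against 8.22, 0.566 and 1.77 RPKM in antenna. Of the antenna libraries, only replicate 1 reached the optic lobe range, and the log2 difference was 1.65, or 1.09 without antenna replicate 2. To the next tissue it was 1.03 with trimmed-mean factors and 0.14 with quantile normalization. XLOC_001910 (698 bases) had 10.3, 24.7 and 22.6 RPKM in optic lobe, against 38.2, 0 and 5.66 RPKM in antenna. The highest library of all was again antenna replicate 1, and the log2 difference between optic lobe and antenna fell to 0.23 without antenna replicate 2, against 1.57 with it. To the next tissue the difference was 0.96 with trimmed-mean factors and 0.66 with quantile normalization.

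Next to fat body and ovary, the leading loci not yet described were XLOC_024368, XLOC_043026 and XLOC_075713, which had lower levels than XLOC_031906. XLOC_024368 (363 bases) had 8.65, 6.97 and 6.02 RPKM in optic lobe, against 2.63, 3.74 and 0 RPKM in fat body, and its optic lobe libraries were above all others. The log2 difference was 1.66, 0.97 without fat body replicate 3 and 1.08 without retina replicate 3. It was 0.77 with trimmed-mean factors and 0.11 with quantile normalization. Retina had 3, 2.7 and 0 RPKM of it and non-visual brain 0, 0.725 and 0 RPKM, so here the rest of the brain was near 0. XLOC_043026 (743 bases) had 1.43, 2.9 and 3.68 RPKM in optic lobe, against 0.916, 2.32 and 0 RPKM in fat body, which overlapped, and antenna replicate 1 was highest of all at 3.98 RPKM. The log2 difference was 0.93, 0.52 without non-visual brain replicate 1 and 0.49 without fat body replicate 3. With quantile normalization XLOC_043026 was no longer highest in optic lobe (log2 difference -0.52). XLOC_075713 (254 bases) had 9.01, 5.65 and 20.4 RPKM in optic lobe, against 6.04, 3.93 and 2.14 RPKM in ovary. Antenna replicate 3 carried 46.7 RPKM of it and the other antenna libraries 0, which is 36 reads in 1 library. The log2 difference of XLOC_075713 was 1.24, 0.66 without non-visual brain replicate 1, 0.71 without antenna replicate 1 or 2 and 0.77 without optic lobe replicate 3. It was 0.84 with trimmed-mean factors and 0.29 with quantile normalization.

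At the edges of the rule, XLOC_100024 had a mean 0.01 higher in optic lobe than in non-visual brain on the log2 scale (32.2 ± 14.6 against 29.6 ± 4.4 RPKM, SD, n = 3 each). XLOC_042130 fell just outside, at 8.62 ± 1.86 RPKM in optic lobe and 8.78 ± 2.68 RPKM in non-visual brain. XLOC_010712 passed the filter with 1.02 RPKM in the library ranked 3, and XLOC_089298, with 0.952 RPKM at that rank, did not.

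The optic lobe replicates were unequal across the loci. Replicate 1 held the highest of the 3 values for 92 loci (56.4%), replicate 3 for 41 and replicate 2 for 30. Replicate 3 held the lowest for 84 loci (51.5%) and replicate 2 for 67. Among all tested rows highest in optic lobe, replicate 1 was highest for 53.8% and replicate 3 lowest for 62.2%, so the same replicates led and trailed there. The SD of log2(RPKM + 1) over the 3 optic lobe libraries had a median of 0.49 over the loci and 0.47 over the other tested XLOC loci.

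Over the 18 libraries the patterns of the loci were moderately alike. The Pearson correlation between pairs of the loci had a median of 0.511, against 0.499 between HSALG rows highest in optic lobe and 0.0462 between the other tested XLOC loci, which peak in different tissues. Such correlations share the libraries, their depth and the rule. The closest row of each locus, a maximum over all tested rows, correlated at 0.773 to 0.99 with it (median 0.929). It was an XLOC locus for 16 of the 163 loci and an HSALG row for the rest. XLOC loci were 369 of the 12996 tested rows. For the other tested XLOC loci the median was 0.913, and the closest row was an XLOC locus for 20 of 206, so neither value was particular to the loci. For the loci described above these rows were HSALG001307.1 for XLOC_044583 (r = 0.963), HSALG016076.1 for XLOC_031906 (r = 0.888), HSALG014680.2 for XLOC_102057 (r = 0.952) and HSALG025192.1 for XLOC_115752 (r = 0.937). They were HSALG009300.2 for XLOC_024368 (r = 0.873) and HSALG022544.1 for XLOC_043026 (r = 0.851). The libraries kept no strand, so reads of a locus and of an overlapping gene on the other strand cannot be told apart, and the positions needed to see such overlap are not analysed here.

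The rule sets each of the other tissues against the optic lobe and not against each other. It also keeps each of them below the optic lobe mean, which leaves out rows that peak in retina, fat body or ovary. Contrasts among the other tissues are therefore not free of the rule, and few lower calls could be met. All rows highest in optic lobe passed the same selection and are the closer background. The question was whether loci that peak in the optic lobe were otherwise higher in the rest of the brain, in the retina or outside the nervous system. All 12996 rows were tested with limma on log2(RPKM + 1), all 6 tissues in 1 fit, and a row was called at a Benjamini-Hochberg adjusted p under 0.05 over all rows and a log2 difference of 1 or more. Of the 163 loci, 65 were called higher in non-visual brain against at least 1 of retina, fat body and ovary, and 98 were called in none of the 4 contrasts. These joint counts were not taken over other rows, so they cannot be read as a trait of the loci. The shares of each contrast are given below beside their backgrounds. The 3 brain contrasts share the non-visual brain libraries.

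Against retina, 29 loci (17.8%) were called higher in non-visual brain, beside 11.8% of all tested rows and 13.6% of all tested rows highest in optic lobe. Among the other tested XLOC loci the share was 13.6%. It was 34.7% for those highest in non-visual brain and 2.24% for those highest outside the brain. No locus was called lower, where the background was 3.25% of all tested rows and 0.0416% of rows highest in optic lobe. At an unadjusted p below 0.05 limma had 0 lower loci, and 0 were called with voom. The median log2 difference of the loci was 1.07, with 148 of 163 above 0. Over all rows highest in optic lobe the median was 0.91, and over all tested rows 0.77. With trimmed-mean factors the median of the loci was 0.39, beside 0.03 over all tested rows. With quantile normalization it was 0.26, beside 0.05 over all tested rows. The difference between these shares was not tested. Without non-visual brain replicate 2 or replicate 3 there were 19 calls each, and without retina replicate 3 there were 18. XLOC_007075 (317 bases) led, with 41.2, 20.1 and 24.9 RPKM in non-visual brain, against 1.49, 1.85 and 0 RPKM in retina. The difference was 3.89 on the log2 scale, with SE 0.91 and a limma adjusted p of 0.00616. All 3 brain libraries were above all 3 retina libraries, but with a pseudocount of 0.1 the adjusted p was 0.0526. XLOC_099575 (3328 bases) followed, with 19.8, 32.2 and 28.7 RPKM in non-visual brain, against 4.01, 0.265 and 0.747 RPKM in retina. Its log2 difference was 3.62 with SE 0.6, at a limma adjusted p of 0.000333. In optic lobe XLOC_099575 had 50, 46.5 and 33.4 RPKM, each above every other library.

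Against fat body, 46 loci (28.2%) were called higher in non-visual brain, beside 22.6% of all tested rows and 29.9% of all rows highest in optic lobe. No locus was called lower, beside 3.89% of all tested rows and 0.0208% of those highest in optic lobe; limma had 0 lower loci at an unadjusted p below 0.05 and voom 0 calls. There were 27 higher calls without non-visual brain replicate 3, and 1 lower call without fat body replicate 3. The median log2 difference was 1.24, beside 1.22 over all rows highest in optic lobe and 0.9 over all tested rows. With trimmed-mean factors the median of the loci was 0.67, beside 0.27 over all tested rows. With quantile normalization it was 0.17, beside -0.04 over all tested rows. XLOC_007075 had no read in fat body and was at least 119 times higher in non-visual brain, with 3 reads over the 3 fat body libraries as the floor (adjusted p = 0.000634, limma). XLOC_016537 (1901 bases) had 24.6, 26.7 and 22.8 RPKM in non-visual brain, against 0.788, 0.778 and 0 RPKM in fat body. That is a log2 difference of 4.12 with SE 0.55, at a limma adjusted p of 2.37e-05. Its optic lobe level of 23.2, 31.8 and 24.8 RPKM overlapped with that of the non-visual brain, so XLOC_016537 was at a like level in both brain parts. The fat body and ovary libraries carry another series of library labels than the 4 head tissues, so that series and the tissue cannot be told apart in any contrast with fat body or ovary.

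Against ovary, 45 loci (27.6%) were called higher in non-visual brain, beside 13.5% of all tested rows and 17.3% of all rows highest in optic lobe. The other tested XLOC loci had a share of 26.7% (55 of 206), which mixes 2 unlike sets. It was 55.6% (40 of 72) for those highest in non-visual brain, which lie above ovary by definition. For those highest outside the brain it was 11.2% (15 of 134). No locus was called lower, beside 9.57% of all tested rows and 0.229% of rows highest in optic lobe; limma had 0 lower loci at an unadjusted p below 0.05 and voom 0 calls. Without ovary replicate 2 or replicate 3 there were 30 higher calls each. The median log2 difference was 1.09 over the loci, 0.33 over the other tested XLOC loci, 0.54 over all rows highest in optic lobe and 0.05 over all tested rows. It was 0.91 over the loci with trimmed-mean factors and 0.77 with quantile normalization. XLOC_007921 (337 bases) had 28.8, 28.1 and 46 RPKM in non-visual brain, against 0, 0.395 and 0 RPKM in ovary. Its log2 difference was 4.95 with SE 0.7, at a limma adjusted p of 2.74e-05. XLOC_108422 (3067 bases) had 25.9, 28.7 and 33.8 RPKM in non-visual brain, against 0.129, 0.141 and 0.0444 RPKM in ovary. Its log2 difference was 4.78 with SE 0.51, at a limma adjusted p of 9.22e-07. For both loci every brain library was far above every ovary library.

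**Figure D4:**
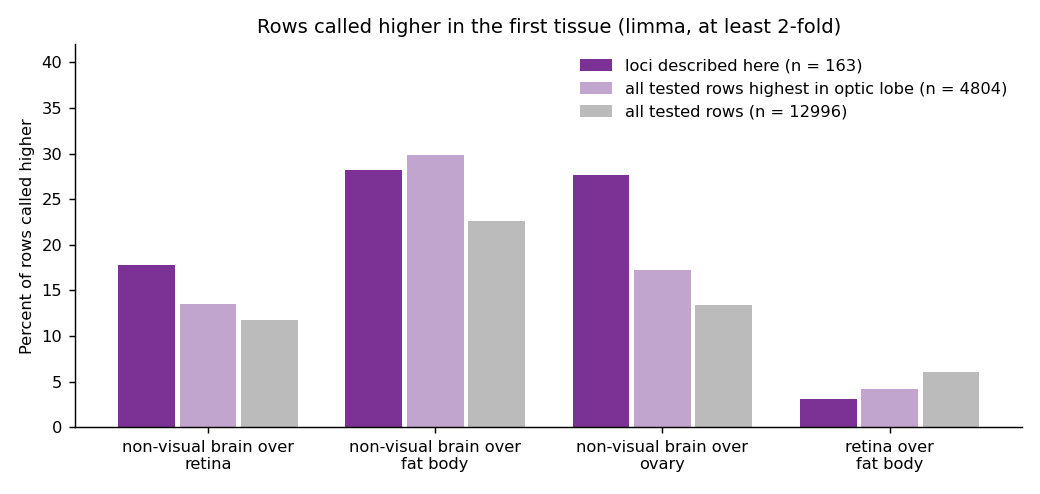
Percent of rows called higher in the first-named tissue by limma at an adjusted p under 0.05 and at least 2-fold, for the 163 loci, all 4804 tested rows highest in optic lobe and all 12996 tested rows. The share of the 163 loci stands above both backgrounds for non-visual brain over ovary, at 27.6% against 17.3% and 13.5%, and for non-visual brain over retina, at 17.8% against 13.6% and 11.8%. For non-visual brain over fat body it is 28.2% against 29.9% and 22.6%, and for retina over fat body 3.07% against 4.25% and 6.05%. The differences between shares were not tested. The other tested XLOC loci, not drawn, stood at 26.7% for non-visual brain over ovary. This was 55.6% for those highest in non-visual brain and 11.2% for those highest outside the brain.

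Retina against fat body gave few calls. Of the 163 loci, 5 (3.07%) were called higher in retina, beside 6.05% of all tested rows and 4.25% of all rows highest in optic lobe, and 1 was called lower, beside 4.26% of all tested rows and 0.52% of those highest in optic lobe. Higher calls numbered 1 without retina replicate 1, retina replicate 2 or fat body replicate 2. They numbered 2 without optic lobe replicate 1 or 2, retina replicate 3 or fat body replicate 1, and 3 without non-visual brain replicate 2 or 3, fat body replicate 3 or ovary replicate 3. The median log2 difference was 0.25. XLOC_007921 had 24.3, 46.8 and 22.7 RPKM in retina, against 0, 0.183 and 10.9 RPKM in fat body. The log2 difference was 3.67 with SE 0.7, at a limma adjusted p of 0.00154, and of 0.0998 when only these 2 tissues were fitted. With 53.4, 47.3 and 31.1 RPKM in optic lobe and no read in antenna, it was at like levels in the visual tissues and the brain. XLOC_061709 (793 bases) had 31.1, 38 and 13.8 RPKM in retina, against 0.601, 3.03 and 7.84 RPKM in fat body. The log2 difference was 2.78 with SE 0.84, at a limma adjusted p of 0.0399. Its optic lobe libraries, at 56.8, 38.6 and 54.3 RPKM, were above all others, and non-visual brain had 21.8, 26.2 and 22.1 RPKM. The call on XLOC_061709 was lost without any 1 of 8 libraries, with limma adjusted p between 0.0503 and 0.201. It was also lost with the replicate block (0.0525), without the filter (0.0776), with only these 2 tissues fitted (0.0822) and with a pseudocount of 0.1 (0.172). The locus called lower was XLOC_068633, at 10.7 ± 4.08 RPKM in retina and 98.8 ± 12.7 RPKM in fat body (SD, n = 3 each; log2 difference -3.15, SE 0.5, adjusted p = 0.000294, limma).

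How many XLOC loci count as highest in optic lobe depended on how the libraries were scaled. With trimmed-mean factors 103 loci were highest there, and with quantile normalization 80, all of them among the 163. With libraries rescaled to the same sum there were 185. The share of tested HSALG rows moved with it, at 36.8% as deposited, 47.1% with the same sum, 21.4% with trimmed-mean factors and 18.8% with quantile normalization. Of the 163 loci, 73 were highest in optic lobe under all 3 other scalings, and 21 of the 24 with a 2-fold difference were. Leaving out any 1 of the 18 libraries left 102 of the 163 highest in optic lobe each time, and 23 of those 24.

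**Figure D5:**
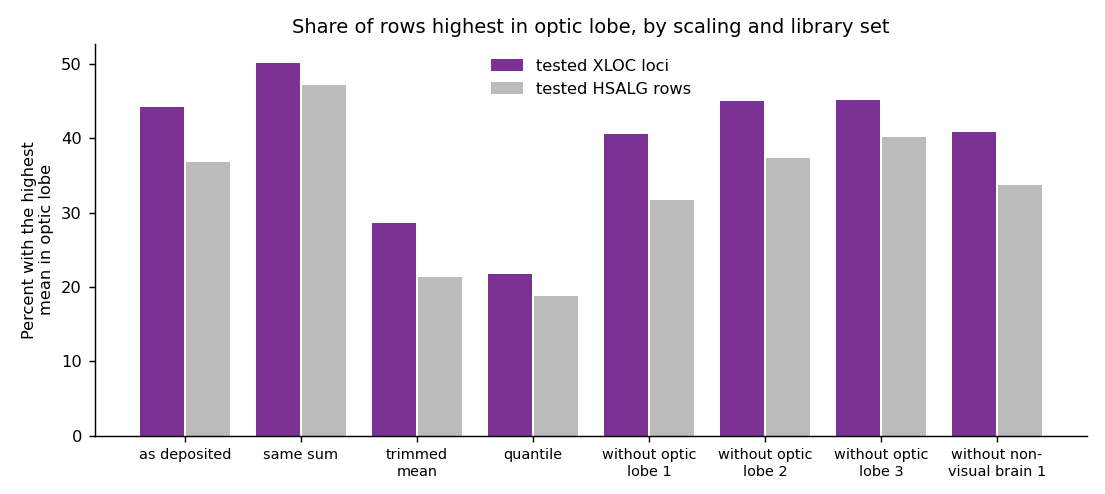
Percent of tested XLOC loci and of tested HSALG rows whose mean is highest in optic lobe, as deposited, under 3 other scalings and without single libraries. XLOC loci stood at 44.2% and HSALG rows at 36.8% as deposited, and at 21.7% and 18.8% with quantile normalization; without single libraries the shares moved less.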

How the data were processed

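Polyadenylated RNA of 6 tissues was sequenced without strand after reverse transcription from random hexamers, per the labels' protocols. The authors deposited 1 table of RPKM values with 1 column per library; all 18 columns were matched to samples by label. STAR 2.5.0b and DESeq2 appear in the submitters' processing notes, with no role stated. The sources used here give no genome build, annotation or counting tool with its role. All libraries carry 1 flow-cell label.

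The 12996 rows that reached 1 RPKM in 3 or more libraries entered limma (version 3.58.1, R version 4.3.3; trended variance, two-sided) as log2(RPKM + 1). The added 1 makes differences of low rows smaller than they are. Because RPKM steps are whole multiples of 1 read, totals, lengths and reads were recovered for 18427 rows (99.1% of those above 0), counted as whole within the rounding of the file and a further relative tolerance of 1.5e-06. Both steps were tested on simulated data. Floors and read counts cover counting error only. Loci named are the 5 highest in optic lobe, the 2 with the largest difference to each next tissue, the 2 largest calls per contrast and direction, and the nearest on each side of the rule. Alternatives were other pseudocounts, filters, scalings, library sets, weights, voom and a replicate block. Members, contrasts and lists were chosen with earlier results of these data known.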

Additional observations from a re-analysis of the deposited data

How the results depend on the processing

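The limits are the scaling, which sets how many rows peak in optic lobe, and the depth in antenna, where 3 reads at 1000 bases were worth up to 1.27 RPKM. The number of loci highest in optic lobe was 163, 147 to 166 without 1 library, 103 with trimmed-mean factors and 80 with quantile normalization. Loci at least 2-fold above the next tissue numbered 24, 18 to 43 without 1 library, 51 and 5 with pseudocounts of 0.1 and 5, 41 with libraries rescaled to the same sum, 9 with trimmed-mean factors, 8 with quantile normalization, and 41 without optic lobe replicate 3 and antenna replicate 3 together, a setting chosen after seeing the data. Loci without overlap numbered 23, 23 to 66 without 1 library, 6 with trimmed-mean factors, 6 with quantile normalization, 35 without the antenna libraries and 72 without those 2 libraries.

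Calls higher in non-visual brain than in retina numbered 29, 18 to 39 without 1 library, 19 with a pseudocount of 0.1, 46 with the same sum, 12 with trimmed-mean factors, 15 with quantile normalization, 55 without the antenna libraries, 84 with library weights and 47 with only the 2 tissues fitted; 2 loci were lower with weights, and 0 to 0 without 1 library. Against fat body the 46 calls became 27 to 63, 77 with the same sum, 23 with trimmed-mean factors, 18 with quantile normalization, 79 without the antenna libraries and 103 with weights; 1 locus was lower under trimmed-mean factors, quantile normalization and weights, and 0 to 1 without 1 library. Against ovary the 45 calls became 30 to 54 without 1 library and 93 with weights, with 1 lower under weights. Calls higher in retina than in fat body numbered 5, 1 to 5 without 1 library, 2 with a pseudocount of 5, 3 without the filter, 3 with the same sum, 8 with trimmed-mean factors, 22 with weights, 9 with voom and 2 with only the 2 tissues; 1 was lower, 2 with trimmed-mean factors, 3 with quantile normalization and 2 with weights. The share of all tested rows called higher moved with the settings too. For non-visual brain over retina it was 11.8%, 22.2% without the antenna libraries, 36.2% with weights, 18.5% with only the 2 tissues and 5.24% with trimmed-mean factors. Over fat body it was 22.6%, and 47.4% with weights. Over ovary it was 13.5%, and 26.8% with weights. For retina over fat body it was 6.05%, and 18.9% with weights. The weights did not reach their convergence tolerance. The causes were not tested.

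Same-numbered libraries of 2 tissues did not deviate together in a regular way. Of 45 correlations of their deviations from the tissue means 9 were over 0.1, and all ran from -0.35 to 0.33. Whether such libraries share an animal or pool is not stated, and deviations from means of 3 libraries cannot decide it. With the replicate block the higher calls were 28, 45, 41 and 2 in the order above, against 29, 46, 45 and 5 without it. The median shift of the loci in retina against fat body was 0.25, and -0.07 with quantile normalization.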
